A study of Mus musculus with 18 samples.

Results

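The comparison described here set the colon of mice gavaged with Akkermansia muciniphila against the colon of untreated Control mice, using 12 of the 18 RNA-seq libraries of the series. Its members were the 6 libraries whose names begin with AKK and the 6 whose names begin with Control. Of 36451 genes in the deposited table, 13479 had an FPKM (a level per kilobase of transcript, relative to the library's mapped fragments) of 1 or more in at least 6 of these 12 libraries and were tested. Control mice were male C57BL/6J mice of 6 weeks. AKK mice received 0.1 mL of the bacterial suspension by gavage once a week for 6 weeks. Mice of the third group, Model, drank 3% dextran sulfate sodium (DSS), a detergent-like polymer that injures the colon lining, for 1 week and were gavaged with saline buffer. The design text states DSS for the Model group. It does not say whether the AKK mice drank it or how old they were, so "AKK" below means the library label and nothing more. The study asked whether the bacterium affects colitis through ferroptosis. Library numbers run in separate series (AKK_1302 to AKK_1310 against Control_2285 to Control_2289 and Control_2668), so a cohort and the gavage cannot be told apart. Nothing in the labels ties a library to its own animal, and the p-values therefore cover the spread between these libraries, which may be technical.

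Akkermansia muciniphila is a bacterium of the gut that lives in the mucus layer and feeds on mucin, the heavily glycosylated protein that goblet cells secrete. The colon wall beneath that mucus holds an epithelium renewed from crypt stem cells, a lamina propria rich in plasma cells that make immunoglobulin A, and a scaffold of fibroblasts, vessels and muscle. Epithelial cells answer bacteria with secreted lectins of the Reg3 family and respond to interferons with antigen-presenting and antiviral proteins. In ferroptosis, cells die when iron-dependent peroxidation of their membrane lipids outruns the enzyme Gpx4. In bulk RNA from a piece of colon, fewer cells of a type and less RNA per cell cannot be told apart.

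Total counts per library ran from 53873744 to 65705141 in Control and from 60665457 to 82589848 in AKK, and 3 AKK libraries but 0 Control libraries exceeded 70000000 (AKK_1306, AKK_1309 and AKK_1310). The most alike pair of the 12 libraries still had a chi-square of 54.1 per degree of freedom, where sampling noise alone gives about 1. In a principal component analysis the first component held 39.3% of the variance and separated the groups, with all Control libraries on 1 side and all AKK libraries on the other. Markers of colon epithelium were present throughout. Car1, the carbonic anhydrase of colonocytes, lay at 1071 to 8845 FPKM in Control and 528 to 5801 in AKK. Slc26a3, the chloride-bicarbonate exchanger of colonocytes, lay at 18.1 to 115 and 26.8 to 89.1. Cdx2, the transcription factor of intestinal identity, lay at 91.0 to 121 FPKM in Control and 55.9 to 93.6 in AKK.

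Genes that mark position along the gut, picked after their values were seen, differed among the libraries. Control_2286 carried small-intestinal transcripts. Defa24, a Paneth cell defensin, stood at 458 FPKM there and at 0 in the other 11 libraries, and Itln1, a small-intestinal lectin, at 164 against at most 1.57. Within the AKK libraries, AKK_1309 had Hoxb13, a gene of the hindmost gut, at 58.9 FPKM, against 0 to 4.51 in the other AKK libraries. Hoxb6, a homeobox gene used here as a marker of position along the gut, ran from 12.9 through a median of 26.1 to 37.1 FPKM in Control and from 0.590 through 4.10 to 23.04 in AKK. Best2, a bicarbonate channel of goblet cells, ran from 0.148 to 2.29 in Control and from 2.04 to 22.4 in AKK. Of 10 small intestinal enterocyte genes tested, of 20 listed, 4 were lower in AKK and 0 higher (median log2 difference -0.58). Of 14 proximal colon genes 1 was higher and 1 lower, and of 7 distal colon genes tested, of 12 listed, 1 was lower. Over all tested genes 9.71% were called higher and 9.16% lower. The count of lower enterocyte genes was 2 without AKK_1302 or AKK_1305, 1 without AKK_1309 or AKK_1310 and 0 without AKK_1306. It was also 0 without Control_2286 and AKK_1309 together (median -0.21), without the 3 AKK libraries of more than 70000000 counts and with Hoxb6 as a covariate. Sampling position and group moved together for Hoxb6 and cannot be told apart. Main counts of genes are given below also without Control_2286 and AKK_1309, and with Hoxb6 as a covariate in the model; both settings were chosen after seeing the data. Counts without the 3 AKK libraries of more than 70000000 counts, which leaves 3 AKK libraries, are given too. Fewer libraries, or a covariate that moves with group, leave less power. A call lost in these settings therefore does not show that a difference is gone, and list medians are given beside many of the counts.

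**Figure D1:**
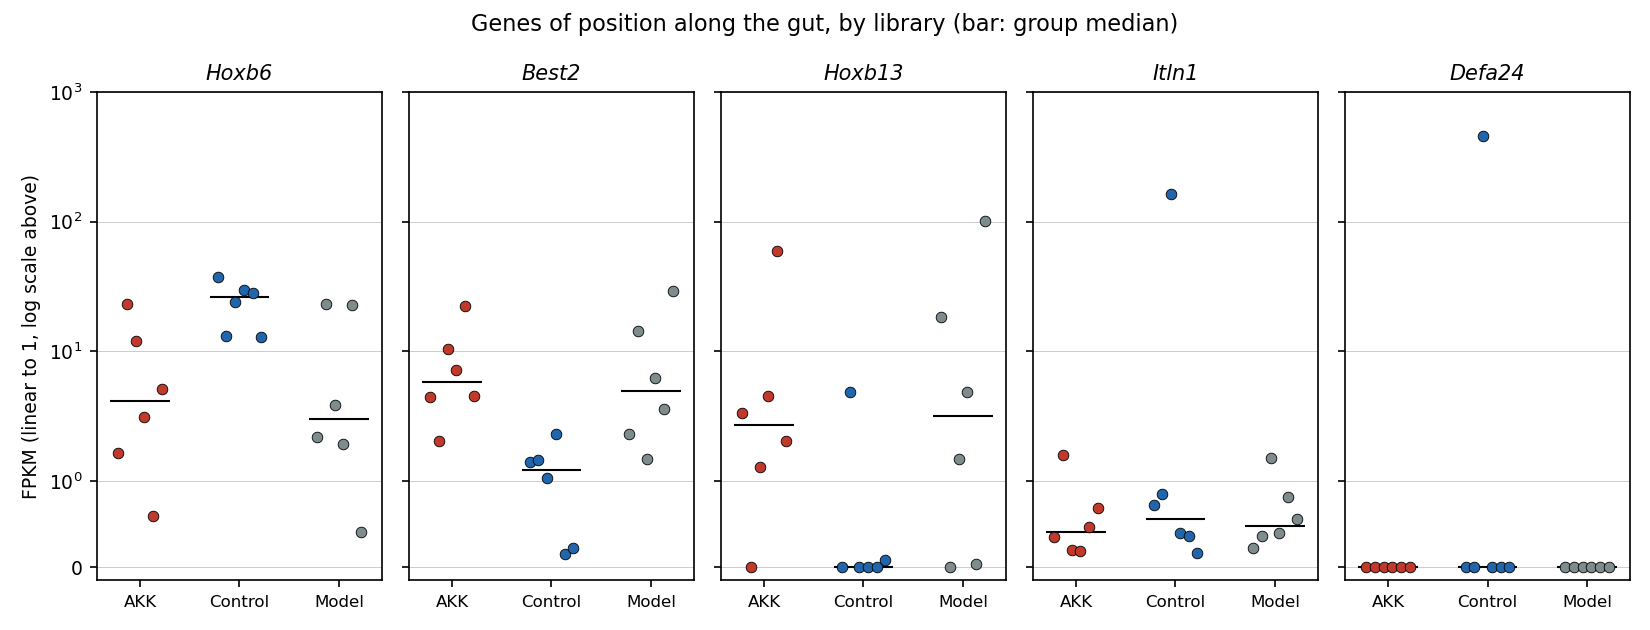
Level of position genes in each library of the 3 groups, in FPKM, with 1 point per library. Control_2286 alone holds the small-intestinal Defa24 (458 FPKM), AKK_1309 holds Hoxb13 at 58.9 FPKM, and Hoxb6 has a median of 26.1 in Control and 4.10 in AKK.

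Across all genes the AKK libraries held more transcripts of antibody-making cells, matrix-making fibroblasts and vessels, and fewer of Reg3 lectins, interferon-induced genes, dividing cells, the proteasome and mitochondrial energy enzymes. edgeR's quasi-likelihood test with Benjamini-Hochberg adjustment called 2544 genes at an adjusted p under 0.05, 18.9% of those tested. Genes called higher in AKK made up 9.71% of the genes tested, and the 1235 genes called lower made up 9.16%; 4682 genes had an unadjusted p under 0.05. The changes upward were larger, with a median log2 difference of 0.65 among genes called higher and -0.43 among genes called lower, and -0.02 over all genes. At least 2-fold differences among the called genes numbered 297 higher and 85 lower. FPKM ranges of the groups did not overlap for 831 genes called higher and 140 called lower, against 7.5% and 1.04% of all tested genes with ranges apart in each direction. Ranges were compared on FPKM without the scaling factors of the test. The median difference of all genes was 0.08 on log2(FPKM + 1), so range comparisons lean toward higher in AKK. The split between directions depends on the scaling: 51.5% of calls were higher with TMM (trimmed mean of M-values) factors and 80.7% with library totals alone, which moved the median of all genes to 0.09 and called 15.8% of genes higher and 3.78% lower (19.6% in all). Without the 3 deepest AKK libraries the counts were 163 higher and 19 lower (1.21% and 0.141%, 1.35% in all). Without Control_2286 and AKK_1309 they were 704 and 368 (5.22% and 2.73%, 7.95% in all), and with Hoxb6 as a covariate 85 and 15 (0.631% and 0.111%, 0.742% in all). Leaving out 1 library moved the total by over 1.5 times for AKK_1306 (1521), AKK_1309 (1636) and AKK_1310 (1676). The shares above stand beside each list count below. Where a setting called few genes in all, a list with no calls says little about that list.

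**Figure D2:**
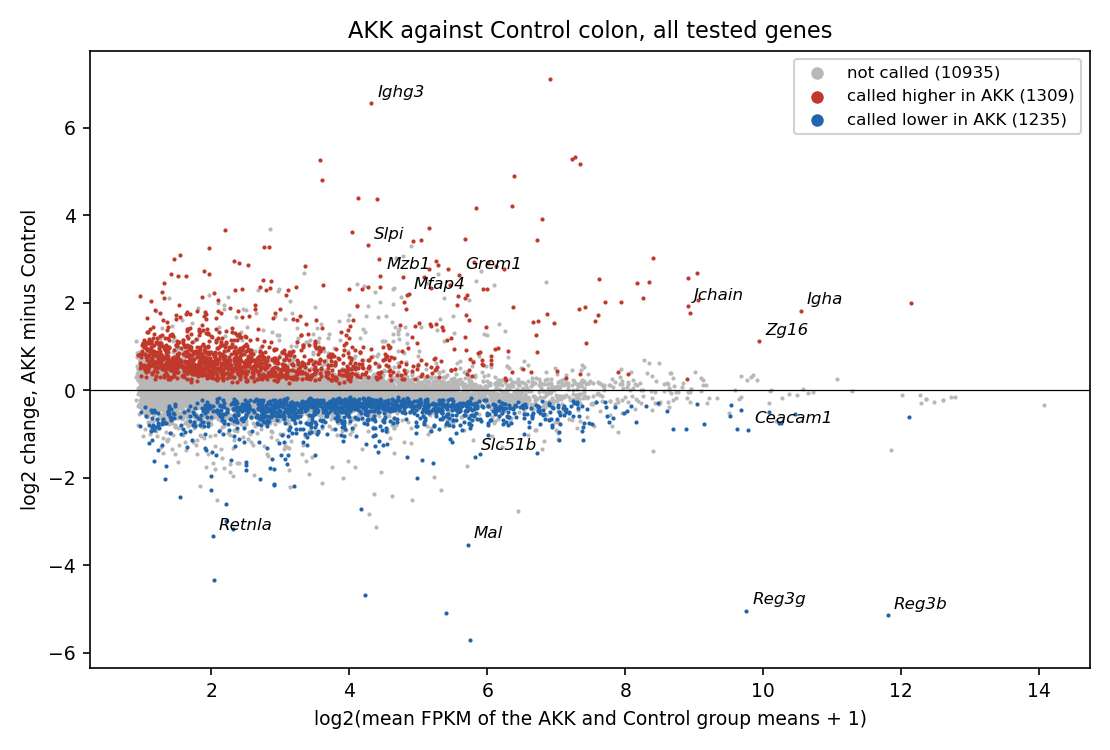
Log2 difference of AKK minus Control against mean level for every tested gene, with 1 point per gene. Genes called higher (median 0.65) reach further from 0 than the 1235 called lower (median -0.43).

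Among genes whose group ranges did not overlap, the largest rises in level included a protease inhibitor, stromal signals and 2 listed neutrophil markers. Slpi, a secreted inhibitor of neutrophil proteases, ran from 1.61 through a median of 2.11 to 7.06 FPKM in Control and from 14.5 through 22.7 to 70.9 in AKK (log2 difference 3.32 ± 0.55 SE, adjusted p = 0.00289). Every AKK library exceeded every Control library. Cd177, a neutrophil surface protein, ran from 23.7 to 74.6 FPKM in Control and from 116 to 271 in AKK (1.75 ± 0.26, adjusted p = 0.00153). Retnlg, a resistin-like protein of neutrophils, rose from a median of 2.31 to 11.6 FPKM (2.19 ± 0.56, adjusted p = 0.0205), and these were the 2 called of 7 neutrophil markers tested, of 14 listed, whose median was 1.75. Without Control_2289 4 of the 7 were called, without the 3 deepest AKK libraries 1, and with the Hoxb6 covariate 0. Lgi2, a secreted leucine-rich repeat protein, rose from a median of 1.33 to 9.97 FPKM (2.51 ± 0.38, adjusted p = 0.00184). The other 8 of the 12 largest rises are plasma cell, B cell, fibroblast and matrix genes given below with their groups (Grem1, Mzb1, Mfap4, Sfrp1, Jchain, Cd79a, Derl3 and Lox).

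The largest falls with ranges apart were led by Reg3b, which is described with the antimicrobial proteins. Mal, a membrane protein of apical transport, ran from 31.4 through a median of 69.3 to 274 FPKM in Control and from 3.62 through 9.13 to 13.1 in AKK (-3.53 ± 0.57, adjusted p = 0.00261). The highest Control value was that of Control_2286. Retnla, a resistin-like protein of alternatively activated macrophages, had a median of 6.13 FPKM in Control and 0.557 in AKK (-3.34 ± 0.54, adjusted p = 0.00216). Akr1c18, an aldo-keto reductase that inactivates progesterone, fell from 6.02 to 0.852 (-2.61 ± 0.39, adjusted p = 0.0013). The AKK medians of Retnla and Akr1c18 were under the level filter, so both entered the test largely through their Control level. Gda, guanine deaminase of purine breakdown, fell from 30.5 to 13.7 (-1.24 ± 0.15, adjusted p = 0.00042). Slc5a9, a sugar transporter, Il18bp, the binding protein that neutralises interleukin 18, and Apol7a, an apolipoprotein L family member, fell by 1.78, 1.57 and 1.18 on the log2 scale. The 3 mitochondrial transfer RNA genes mt-Th, mt-Ts2 and mt-Tl2 lie next to each other on the mitochondrial chromosome (11546 to 11741, mm10), so their reads may be shared. Their levels were highest in Control_2668, at 33.6, 26.8 and 26.9 FPKM, and the other Control libraries began at 6.32, 4.82 and 5.10, above the highest AKK values of 5.10, 4.18 and 3.61.

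Antibody genes rose as a group. Of 12 immunoglobulin constant genes tested, of 13 listed, 11 were higher in AKK, 9 of them with ranges apart, with a median log2 difference of 2.75. Immunoglobulin genes of all kinds took 1.69% ± 0.592 (SD, n = 6) of counts in AKK and 0.383% ± 0.107 in Control. Single libraries ran from 1.13% to 2.81% and from 0.225% to 0.529%, so the groups did not overlap (exact permutation test over 924 splits, two-sided p = 0.00216, the smallest this design allows). In the Model libraries the share was 2.35% ± 1.68.

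The immunoglobulin G heavy chains showed the largest differences. Ighg3 (chromosome 12, 113356224 to 113361232, mm10) ran from 0.0409 through 0.172 to 1.41 FPKM in Control and from 5.87 through 36.7 to 80.8 in AKK (6.56 ± 0.94, adjusted p = 0.0014). Ighg2c (chromosome 12, 113285325 to 113288932) ran from 1.80 through 5.90 to 15.3 and from 61.1 through 348 to 441 (5.28 ± 0.66, adjusted p = 0.000672). Ighg2b (chromosome 12, 113302965 to 113307933) had medians of 5.32 and 142 (4.89 ± 0.51, adjusted p = 0.000251). No AKK library fell within the Control range for any of the 3. Ighg3 reached 1 FPKM in Control_2668 alone among the Control libraries, so it was tested because of its AKK level. The light chain gene Iglc2 rose from a median of 10.995 to 237 FPKM (3.91 ± 0.60, adjusted p = 0.00191). Igha, the heavy chain of the mucosal immunoglobulin A, was singled out after its values were seen; it was by far the more abundant, with medians of 599.7 FPKM in Control and 2144 in AKK (1.82 ± 0.25, adjusted p = 0.00077). Immunoglobulin constant genes are near-identical in parts and how reads matching several of them were counted is not known here, so the values of single isotypes are uncertain.

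Plasma cell genes outside the immunoglobulin loci moved the same way. Of 17 tested of 18 listed, 12 were higher, with a median of 0.90. Mzb1, a chaperone of immunoglobulin assembly, ran from 3.22 to 8.21 FPKM in Control and 24.2 to 51.4 in AKK (2.62 ± 0.23, adjusted p = 7.98e-05). Jchain, the chain that joins dimeric immunoglobulin A, ran from 127 to 245 and from 497 to 1131 (1.92 ± 0.19, adjusted p = 0.00014). Both were far apart between the groups. Derl3, a factor of the endoplasmic reticulum in secretory cells, and Irf4, a transcription factor of plasma cell fate, rose by 2.30 and 1.79 on the log2 scale. B cell markers were higher for 7 of the 8 tested (median 2.41); 10 of the 18 listed were too low to test, so a marker could enter through its AKK level. Cd79a, a signalling chain of the B cell receptor, ran from 1.25 to 2.57 FPKM in Control and from 7.07 to 22.5 in AKK (2.49 ± 0.29, adjusted p = 0.000306). Fcrla and Cd22, a B cell Fc receptor-like protein and an inhibitory lectin, rose by 3.01 and 2.46, and the highest value of all 3 was in AKK_1309.

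With any 1 library left out, the counts of these antibody groups were again 11, 12 and 7. Without the 3 deepest AKK libraries 8 immunoglobulin, 7 plasma cell and 5 B cell genes were called. Without Control_2286 and AKK_1309 the counts were 10, 9 and 6, and with Hoxb6 as a covariate 6, 4 and 1. With that covariate the list medians were 2.05, 0.51 and 1.83.

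T cell genes moved little as a list. Of 19 tested of 28 listed, 3 were higher and 0 lower (median 0.28), beside 9.71% and 9.16% of all tested genes. Few Control libraries reached 1 FPKM for Cd2 and Il7r, so these entered the test largely through their AKK level. Cd4, the coreceptor of helper T cells that macrophages also carry, rose from a median of 1.41 to 4.93 FPKM (1.82 ± 0.22, adjusted p = 0.00042). Cd2, an adhesion protein of T cells, ran from 0.506 to 1.01 in Control and 1.14 to 2.69 in AKK (1.19 ± 0.24, adjusted p = 0.00711). Il7r, the interleukin 7 receptor, had medians of 0.517 and 1.72 with overlapping ranges (adjusted p = 0.0406). Its call was lost in 9 of the 12 fits that left out 1 library (adjusted p up to 0.0792), all but those without Control_2668, Control_2287 or AKK_1305.

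Macrophage genes were higher for 8 of 22 tested, of 23 listed (median 0.43), and 0 fell, beside 9.71% and 9.16% of all tested genes. Mrc1, the mannose receptor of resident macrophages, ran from 2.38 to 5.32 FPKM in Control and 6.82 to 10.3 in AKK (1.10 ± 0.20, adjusted p = 0.00369). C1qa and C1qc, subunits of the first complement component, had medians of 40.5 and 17.7 in Control and 75.6 and 35.3 in AKK (0.85 ± 0.19 and 0.90 ± 0.19). Fcgr3, an activating receptor for immunoglobulin G, rose from 12.2 to 21.7 (0.88 ± 0.22, adjusted p = 0.0178). The ranges of these 4 genes did not overlap between the groups.

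Complement genes were higher for 9 of 17 tested, of 22 listed, with a median of 0.66, beside 9.71% of all tested genes. C4b, a component of the classical pathway, ran from 8.53 through 12.5 to 16.4 FPKM in Control and from 21.96 through 37.7 to 51.1 in AKK (1.49 ± 0.19, adjusted p = 0.00051). C3, the central component, had medians of 31.2 and 89.6 with overlapping ranges (1.44 ± 0.33, adjusted p = 0.0128). Of 22 chemokines and inflammatory cytokines tested, of 36 listed, 5 were higher and 0 lower (median 0.37). The shares over all tested genes were 9.71% and 9.16%. Ccl8, a chemokine for monocytes, rose from a median of 16.3 to 54.1 (1.53 ± 0.41, adjusted p = 0.0239), but not without AKK_1306 (adjusted p = 0.0523). Cxcl13, which draws B cells into follicles, rose from 10.4 to 22.6 (0.999 ± 0.29, adjusted p = 0.0313), and lost its call without Control_2286, Control_2289, AKK_1302, AKK_1305 or AKK_1309 (adjusted p from 0.0503 to 0.0701). Ccl21a and Cxcl12, made by lymphatic and stromal cells, rose by 0.87 and 0.84 on the log2 scale. Ccl28, an epithelial chemokine that recruits immunoglobulin A plasma cells, ran from 9.71 to 16.7 in Control and 18.1 to 24.4 in AKK (0.59 ± 0.12, adjusted p = 0.00787). Without Control_2289 8 of the 22 were called. Without Control_2286 and AKK_1309 the counts of macrophage, complement and chemokine genes were 7, 10 and 4. Without the 3 deepest AKK libraries 0, 1 and 0 were called and the chemokine median was -0.08, and with the Hoxb6 covariate 0 were called in each. The medians with that covariate were 0.36, 0.64 and 0.04.

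**Figure D3:**
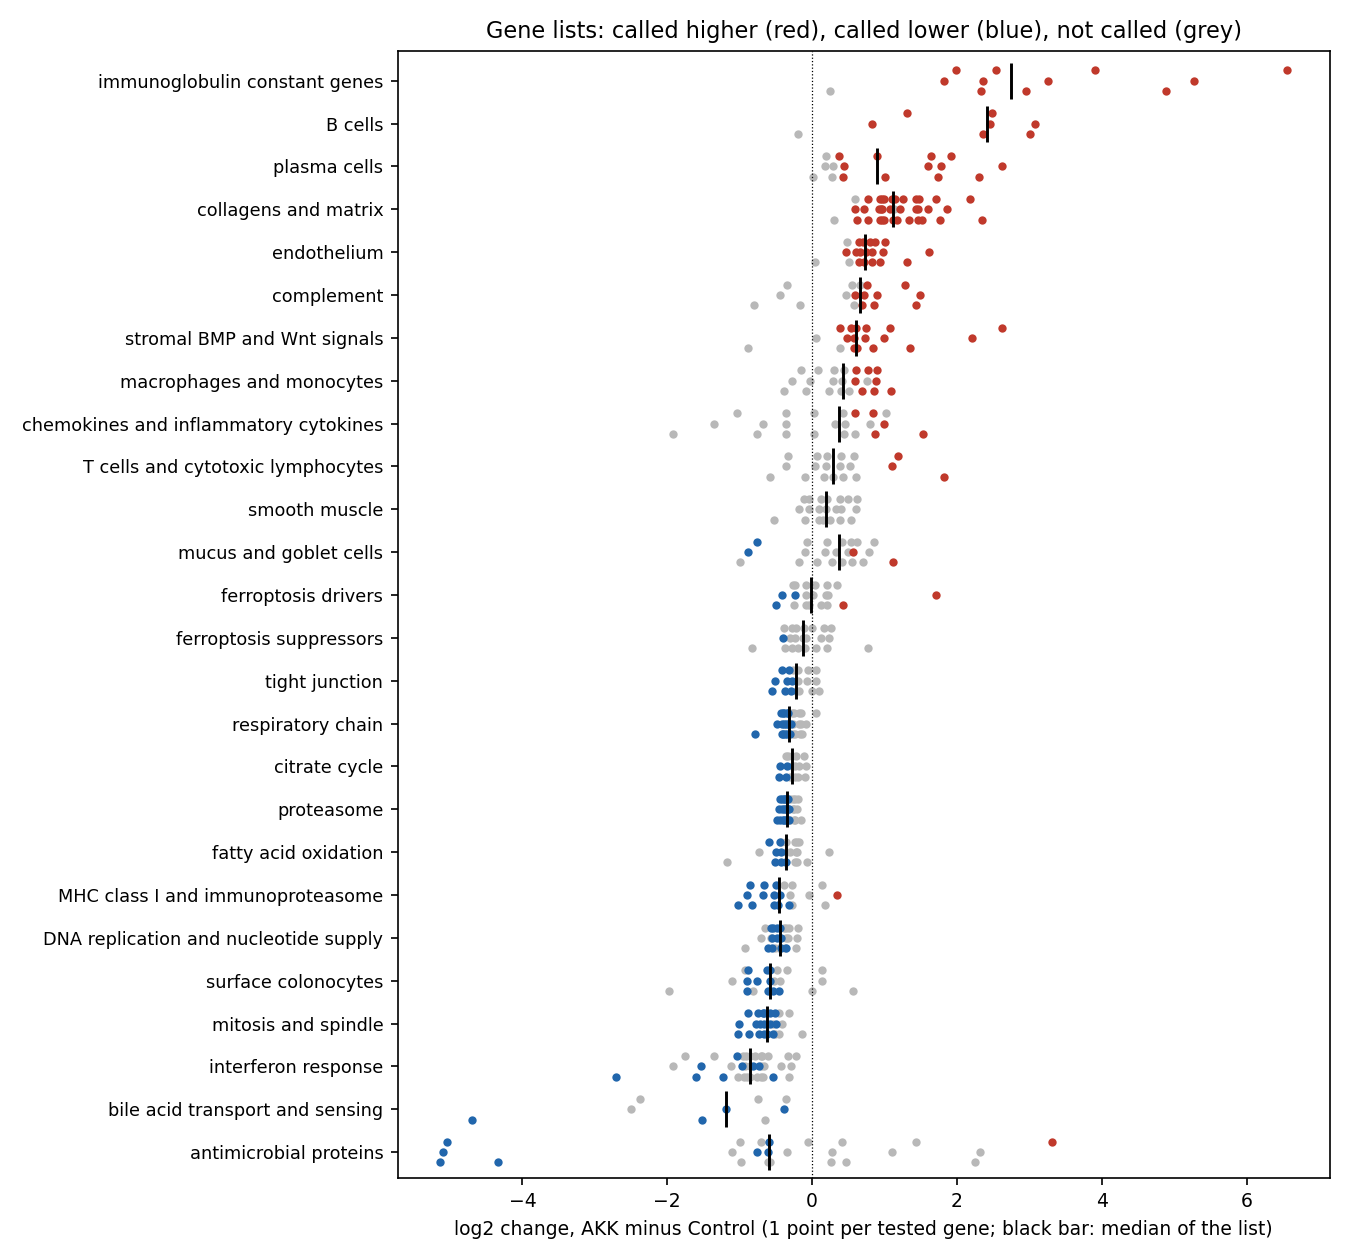
Log2 difference of AKK minus Control for the tested members of the gene lists, with 1 point per gene, coloured by call. All 12 immunoglobulin and 37 matrix genes lie to the right of 0, and all 36 interferon response, 25 mitosis and 31 proteasome genes to the left.

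Matrix genes were higher nearly throughout their list. The gene lists were chosen with earlier results of these data known, which may add to how uniform a list looks. All 37 listed genes of collagens and matrix were tested, every one had a positive difference, and 34 were higher (median 1.11), 31 with ranges apart. Lox, the enzyme that cross-links collagen and elastin, ran from 1.202 through 1.89 to 2.85 FPKM in Control and from 4.14 through 10.4 to 15.4 in AKK (2.34 ± 0.32, adjusted p = 0.000906). Mfap4, a microfibril protein of elastic fibres, ran from 6.34 to 11.8 and from 30.9 to 51.2 (2.18 ± 0.18, adjusted p = 7.98e-05). Eln, elastin itself, rose from a median of 2.69 to 10.7 (1.86 ± 0.29, adjusted p = 0.00216). Col12a1, a collagen that decorates fibrils, rose from 3.16 to 10.6 (1.77 ± 0.24, adjusted p = 0.000858). In all 4 the lowest AKK library lay above the highest Control library.

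Stromal signals that position and feed the crypt were higher for 15 of 18 tested, of 23 listed (median 0.61). Grem1 (chromosome 2, 113746164 to 113758646), an antagonist of bone morphogenetic proteins made by fibroblasts under the crypt, ran from 6.96 through 9.22 to 30.5 FPKM in Control and from 37.8 through 80.6 to 120.0 in AKK (2.62 ± 0.40, adjusted p = 0.00191). Sfrp1, a Wnt antagonist, ran from 6.40 to 14.1 and from 21.8 to 77.3 (2.205 ± 0.26, adjusted p = 0.000449). The highest Control value of both was that of Control_2289. Rspo3, which amplifies Wnt signals to stem cells, rose from 1.67 to 5.30 (1.36 ± 0.26, adjusted p = 0.00541), and Chrdl1, another antagonist of bone morphogenetic proteins, from 1.21 to 2.89 (1.08 ± 0.16, adjusted p = 0.00143).

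Endothelial genes were higher for 17 of 20 tested, of 23 listed, with a median of 0.73, though ranges were apart for 6. Selp, the selectin that slows leukocytes on vessel walls, had medians of 0.585 FPKM in Control and 2.43 in AKK (1.61 ± 0.39, adjusted p = 0.0153). Its Control median was under the level filter, so it entered the test largely through its AKK level. Madcam1, the homing receptor of gut lymphocytes, had 1.38 and 3.94 (1.31 ± 0.32, adjusted p = 0.0155). Vwf, the clotting protein of endothelium, rose by 0.99 and Icam2, an endothelial adhesion protein, by 1.01, the latter losing its call without AKK_1309 (adjusted p = 0.0538). edgeR called 0 of 21 smooth muscle genes (median 0.19), with 3 at an unadjusted p under 0.05, while DESeq2 called 2 and limma 3 higher. Without Control_2285 edgeR called 8 of them higher, and without Control_2289 it called 1. The 2 with the smallest p were Cald1 and Tagln, actin-binding proteins of contractile cells, with medians of 16.5 and 216 FPKM in Control and 30.3 and 429 in AKK (adjusted p = 0.0676 and 0.0793). With 1 library left out, the matrix count was 34 to 35, the stromal count 14 to 15 and the endothelial count 14 to 18. Without the 3 deepest AKK libraries 22, 4 and 0 were called, without Control_2286 and AKK_1309 32, 10 and 11, and with the Hoxb6 covariate 13, 1 and 0. The matrix, stromal and endothelial medians with that covariate were 0.89, 0.63 and 0.62.

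**Figure D4:**
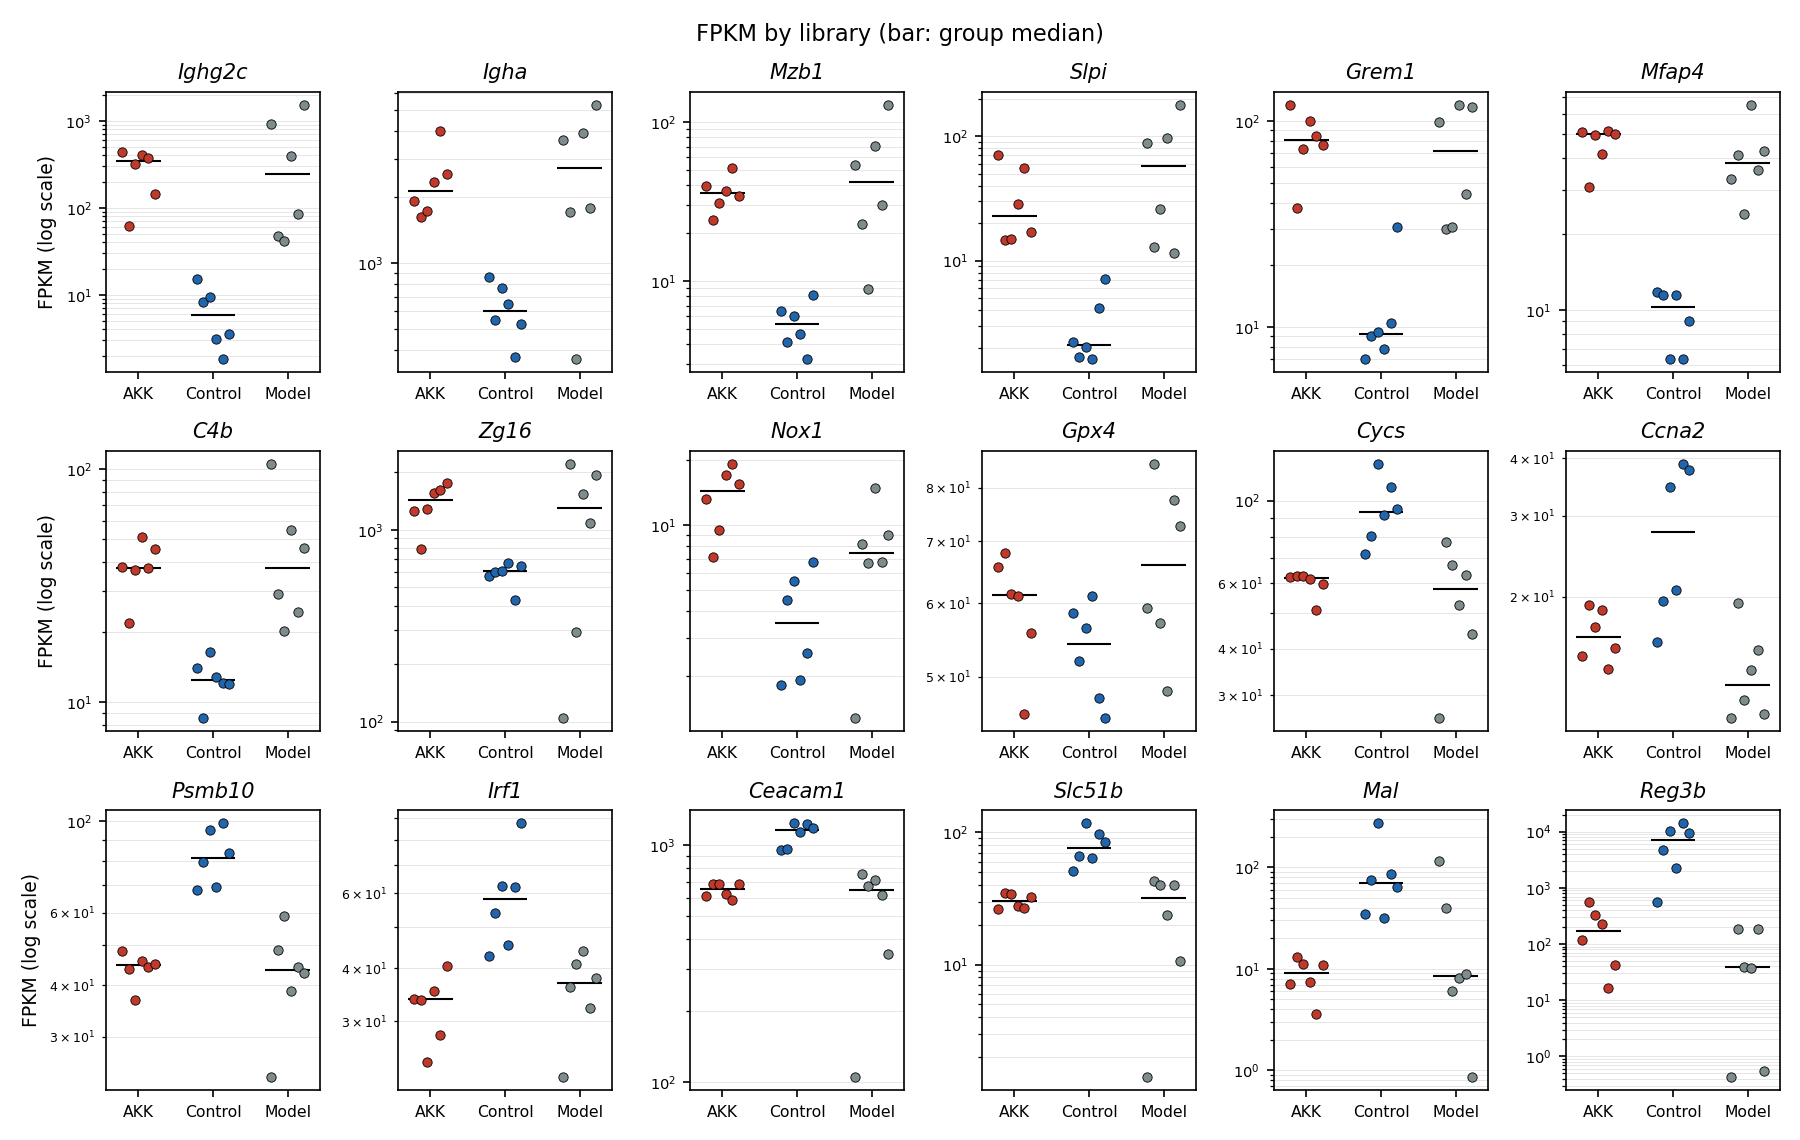
FPKM of 18 genes in each library, with 1 point per library, by group. For Ighg2c, Mzb1, Mfap4 and Slpi no AKK library falls within the Control range, while Gpx4 overlaps.

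In the epithelium, genes on the list of mature surface colonocytes were mostly lower. Of 22 listed and tested, 10 fell and 0 rose (median -0.58), 5 of the fallen with ranges apart. Ceacam1, an adhesion protein of the brush border, ran from 948 through 1159 to 1241 FPKM in Control and from 586 through 650.2 to 688 in AKK (-0.90 ± 0.10, adjusted p = 0.000251). Muc3, a membrane-bound mucin of the brush border, ran from 803 to 1157 and from 475 to 717 (-0.88 ± 0.13, adjusted p = 0.00107). Krt20, a keratin of mature surface cells, fell from a median of 549.8 to 342 (-0.90 ± 0.21, adjusted p = 0.0137) and Mall, a relative of Mal, from 127 to 83.3 (-0.76 ± 0.13, adjusted p = 0.00261). The ranges of Ceacam1, Muc3 and Mall were apart, and those of Krt20 overlapped. Without AKK_1306 6 of the 22 were lower. Genes of colonocyte ion and water transport did not move as a list. Of 24 tested of 27 listed, 3 were higher and 2 lower (median -0.0084), beside 9.71% and 9.16% of all tested genes.

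Tight junction genes were lower for 8 of 19 tested, of 20 listed (median -0.22), beside 9.16% of all tested genes. Without AKK_1306 4 were lower. F11r, a junctional adhesion molecule, had medians of 70.0 FPKM in Control and 52.1 in AKK (-0.56 ± 0.11, adjusted p = 0.00534). Cldn7, a claudin along the epithelial flank, ran from 232 to 325 and from 204 to 230.0, just apart (-0.51 ± 0.10, adjusted p = 0.00623). Cldn3, another claudin, fell by 0.37 on the log2 scale (adjusted p = 0.00711). Cldn23 fell by 0.41 but lost its call without Control_2286, Control_2288, AKK_1305 or AKK_1306 (adjusted p from 0.0505 to 0.0543). Surface and tight junction counts were 2 and 0 without the 3 deepest AKK libraries, 8 and 4 without Control_2286 and AKK_1309, and 4 and 0 with the Hoxb6 covariate. The surface and tight junction medians were -0.58 and -0.21 without the 3 deepest AKK libraries, and -0.74 and -0.30 with the Hoxb6 covariate.

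Of 22 mucus and goblet cell genes, all tested, 2 were higher (Zg16 and Sytl2) and 2 lower (Muc3 and Muc13), with a median of 0.37, shares near the 9.71% and 9.16% of all tested genes. DESeq2 called 7 higher and 2 lower, and with library totals 7 were higher and 1 lower. Without Control_2287 4 were higher, and with the Hoxb6 covariate 0. Muc2, the gel-forming mucin of the colon and the food of the gavaged bacterium, had medians of 1356 FPKM in Control and 1365 in AKK (-0.09 ± 0.22, adjusted p = 0.793). Zg16, a lectin of the mucus that binds Gram-positive bacteria, ran from 428 through 606 to 670.5 and from 798 through 1426 to 1759.5 (1.12 ± 0.17, adjusted p = 0.0013). Its ranges were apart, while the AKK range of Muc2 (1029 to 1630.0) lay inside that of Control (589 to 1741). Sytl2, a factor of granule release, rose by 0.57 (adjusted p = 0.0116). Muc13, a membrane-bound mucin, fell by 0.76, a call lost in 8 of the 12 fits without 1 library (adjusted p up to 0.0778), all but those without Control_2668, Control_2285, Control_2287 or AKK_1309. Among 18 crypt stem cell genes and Wnt targets tested, of 22 listed, 2 were higher and 1 lower (median 0.04), beside 9.71% and 9.16% of all tested genes. The niche gene Smoc2 and the cell-sorting receptor Ephb3 were higher and the Myc target Cdca7 was lower.

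Antimicrobial proteins included Reg3b, the largest fall in mean log2(FPKM + 1) among the called genes with ranges apart that the naming rule admits. Of 24 tested of 31 listed, 7 were lower (Reg3b, Reg3g, Reg3a, Lyz1, Lypd8, Dmbt1 and Sprr2a1) and Slpi was higher, with a median of -0.59. Over all tested genes 9.16% were lower and 9.71% higher. Reg3b (chromosome 6, 78370657 to 78373466), a secreted C-type lectin of the epithelium, ran from 551 through 7041 to 14418 FPKM in Control and from 16.8 through 173 to 551 in AKK (-5.13 ± 0.9998, adjusted p = 0.00655). Its ranges nearly touched, since the highest AKK library (AKK_1303) and the lowest Control library (Control_2668) were equal to 3 digits. Reg3g (chromosome 6, 78466269 to 78468872), a lectin that kills Gram-positive bacteria, had medians of 1666 and 52.3 (-5.04 ± 0.99, adjusted p = 0.00681), with AKK up to 129 and Control down to 109. Reg3a (chromosome 6, 78380709 to 78383827) was far scarcer, at medians of 5.20 and 0.0674 (-4.34 ± 1.14, adjusted p = 0.023), and entered the test largely through its Control level. Its difference was -6.77 without AKK_1303 and its call was lost without AKK_1306 or AKK_1310 (adjusted p = 0.0521 and 0.053). The 3 genes are close relatives, so reads may be shared among them.

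Lyz1, the lysozyme of Paneth cells, rested on Control_2286, where it reached 463 FPKM against medians of 3.80 in Control and 2.02 in AKK. Without that library its difference was -0.48 (adjusted p = 0.507), and its call was also lost without any 1 of the 6 AKK libraries (adjusted p up to 0.0915). The count of lower antimicrobial genes was 3 without AKK_1306, 0 without the 3 deepest AKK libraries, 4 without Control_2286 and AKK_1309 and 0 with the Hoxb6 covariate. The list median with that covariate was -0.76. Without Control_2289 3 genes of the list were higher.

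Bile acid genes were lower for 4 of 9 tested, of 13 listed (median -1.19). Slc51b, a subunit of the transporter that moves bile acids into the blood, ran from 51.1 through 75.5 to 118 FPKM in Control and from 26.2 through 30.2 to 35.1 in AKK (-1.52 ± 0.19, adjusted p = 0.000529), with ranges apart. Nr1h4, the bile acid receptor FXR, had medians of 56.9 and 24.1 and overlapping ranges (-1.19 ± 0.25, adjusted p = 0.0084). Fabp6, the ileal bile acid binding protein, reached 187 in Control_2286, and without that library its difference was -1.39 (adjusted p = 0.117); its call was also lost without any AKK library but AKK_1303 (adjusted p up to 0.0766). Nr1i2, the xenobiotic receptor PXR, fell by 0.38 and lost its call in 9 of 12 fits (adjusted p up to 0.0941), all but those without Control_2668, Control_2289 or AKK_1303. The count was 2 without Control_2286, AKK_1302, AKK_1305, AKK_1306, AKK_1309 or AKK_1310, and 7 without AKK_1303. It was 1 without the 3 deepest AKK libraries, 2 without Control_2286 and AKK_1309 and 0 with the Hoxb6 covariate. The list median with that covariate was -0.44.

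Interferon-induced genes and the antigen-presenting machinery of MHC class I were lower. Interferon gamma acts largely through a promoter element called the gamma-activated sequence (GAS), and type I interferons through the interferon-stimulated response element (ISRE). Promoter windows are shown for 2 of these genes because they hold matches to those motifs, TTCNNNGAA for GAS and GAAA, any 2 bases, GAAA for ISRE, searched on both strands. Each window covers 250 bases before to 50 after the start in RefSeq (GRCm38.p6), on the plus strand, with matches in capitals. Igtp, an interferon-induced GTPase, has the window chr11:58199306-58199605 with a GAS match at -45 and an ISRE match at -34. Irf1, a transcription factor induced by interferon gamma and chosen here after its values were seen, has the window chr11:53769764-53770063 with a GAS match at -90. A second window of Irf1, chr11:53770223-53770522, not shown, holds no match to either motif.
Igtp: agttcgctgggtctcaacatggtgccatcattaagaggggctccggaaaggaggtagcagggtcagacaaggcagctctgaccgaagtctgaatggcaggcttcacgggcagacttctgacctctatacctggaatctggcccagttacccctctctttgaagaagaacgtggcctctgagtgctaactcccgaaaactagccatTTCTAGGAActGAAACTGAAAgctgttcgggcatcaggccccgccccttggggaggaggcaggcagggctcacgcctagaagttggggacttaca
Irf1: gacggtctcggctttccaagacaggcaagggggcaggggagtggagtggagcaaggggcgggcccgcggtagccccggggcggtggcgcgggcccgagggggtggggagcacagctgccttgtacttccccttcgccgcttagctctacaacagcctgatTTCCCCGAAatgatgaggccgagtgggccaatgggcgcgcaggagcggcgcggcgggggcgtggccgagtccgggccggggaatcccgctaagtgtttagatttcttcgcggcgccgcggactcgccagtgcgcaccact

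Of the 21 lower genes of the interferon and MHC class I lists, 16 had windows in the table and 11 of these held either motif. So did 13 of 23 tested members of the same lists that were not called, and 1125 of 9703 tested genes with windows. By windows the shares were 57.9%, 48.1% and 9.65%, and over all RefSeq promoters 11.3%. A match describes letters and is not a binding site.

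Of 36 interferon response genes tested, of 37 listed, every one had a negative difference and 9 were lower (median -0.86). The share called lower over all tested genes was 9.16%. Ido1, which degrades tryptophan, ran from 2.92 through 20.1 to 73.8 FPKM in Control and from 1.35 through 5.26 to 7.59 in AKK (-2.71 ± 0.68, adjusted p = 0.0188). Igtp ran from 15.7 through 36.2 to 86.4 and from 7.00 through 14.6 to 23.2 (-1.53 ± 0.40, adjusted p = 0.0219). Control libraries were widely spread for both, and the groups overlapped. Gbp2, a guanylate-binding protein, fell by 1.61 but lost its call in 9 of 12 fits (adjusted p up to 0.0787), all but those without Control_2668, Control_2285 or Control_2287. Zbp1, a sensor of unusual nucleic acids, fell by 1.23, except without AKK_1309 (adjusted p = 0.0507). Irf1 ran from 42.8 to 87.8 and from 24.04 to 40.4, with ranges apart (-0.97 ± 0.17, adjusted p = 0.00365).

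Of 20 MHC class I and immunoproteasome genes, all tested, 12 were lower and H2-M3 was higher (median -0.45). Psmb10, a catalytic subunit of the immunoproteasome, ran from 68.0 through 81.7 to 99.2 FPKM in Control and from 36.8 through 44.7 to 48.4 in AKK (-1.02 ± 0.11, adjusted p = 0.000238). Its partners Psmb8 and Psmb9 had medians of 22.1 and 12.5 in Control and 14.5 and 7.57 in AKK (-0.86 ± 0.24 and -0.83 ± 0.21). Psmb10 was the one of the 3 with ranges apart. Psmb8 lost its call without Control_2286, Control_2288, AKK_1309 or AKK_1310 (adjusted p from 0.0565 to 0.0608). Tap1, the peptide transporter, fell by 0.89 and lost its call in 10 of 12 fits (adjusted p up to 0.0955), all but those without Control_2668 or Control_2287. H2-M3, a nonclassical molecule presenting formylated bacterial peptides, ran from 4.67 to 6.25 and from 6.58 to 8.76 (0.35 ± 0.11, adjusted p = 0.0413), a call lost in 8 of 12 fits (adjusted p up to 0.0926), all but those without Control_2668, Control_2287, AKK_1303 or AKK_1310. Without AKK_1309 the interferon count was 5 and the MHC class I count 7. Without the 3 deepest AKK libraries they were 0 and 1, without Control_2286 and AKK_1309 2 and 5, and with the Hoxb6 covariate 0 and 2. The interferon and MHC class I medians were -0.82 and -0.47 without the 3 deepest AKK libraries, and -1.09 and -0.58 with the Hoxb6 covariate.

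Genes of the constitutive proteasome, the particle that degrades ubiquitin-tagged proteins, were lower by small amounts. All 31 had a negative difference and 19 were lower (median -0.34). Psmb7, a catalytic core subunit, fell from a median of 21.0 to 16.2 FPKM (-0.48 ± 0.11, adjusted p = 0.0109). Psmd13, of the regulatory lid, ran from 25.3 to 38.0 in Control and 20.2 to 25.1 in AKK, just apart (-0.46 ± 0.10, adjusted p = 0.00982). The core subunits Psma1 and Psma4 each fell by 0.44. The count swung between 8 and 29 with single libraries: it was 29 without Control_2668, 10 without Control_2286, 8 without Control_2288, 9 without AKK_1302, 12 without AKK_1303, 8 without AKK_1306, 9 without AKK_1309 and 11 without AKK_1310. It was 0 without the 3 deepest AKK libraries, 5 without Control_2286 and AKK_1309 and 0 with the Hoxb6 covariate. The list median in these 3 settings was -0.30, -0.28 and -0.38.

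Cell division genes were lower. All 25 mitosis genes had a negative difference and 18 fell (median -0.62). Ccna2, the cyclin of S phase and early mitosis, ran from 15.96 through 27.7 to 38.9 FPKM in Control and from 14.0 through 16.4 to 19.2 in AKK (-0.86 ± 0.22, adjusted p = 0.0202). Ube2c, a ubiquitin-conjugating enzyme of mitotic exit, fell from 24.9 to 13.3 (-1.02 ± 0.25, adjusted p = 0.0179). For both, the AKK libraries lay in a narrow band around the lower end of the Control range. Aurka, a spindle kinase, fell by 0.88, a call lost without AKK_1309 (adjusted p = 0.0505). Birc5, survivin, fell by 1.01 and lost its call in 8 of 12 fits (adjusted p up to 0.0729), all but those without Control_2668, Control_2285, Control_2287 or AKK_1303. Among 27 DNA replication genes tested, of 28 listed, 11 were lower (median -0.45). Lig1, the ligase that joins Okazaki fragments, ran from 8.02 to 11.8 and from 6.05 to 7.44, with ranges apart (-0.60 ± 0.10, adjusted p = 0.00261).

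Other replication genes were less stable. Rrm1, a subunit of ribonucleotide reductase, fell by 0.56 and lost its call without Control_2288, AKK_1302, AKK_1303, AKK_1306 or AKK_1309 (adjusted p from 0.0505 to 0.0605). Rfc4, of the clamp loader, fell by 0.55 and lost its call without Control_2286, Control_2288, AKK_1302, AKK_1306 or AKK_1309 (adjusted p from 0.0508 to 0.0633). Mcm3, of the replicative helicase, fell by 0.55 and lost its call in 10 of 12 fits, all but those without Control_2668 or Control_2285 (adjusted p up to 0.0893). The mitosis count was 10 without Control_2288 and 9 without AKK_1309. The replication count was 24 without Control_2668, 6 without Control_2286 or Control_2288, 7 without AKK_1303 and 5 without AKK_1302, AKK_1306 or AKK_1309. Both were 0 without the 3 deepest AKK libraries and with the Hoxb6 covariate, and 1 and 2 without Control_2286 and AKK_1309. The mitosis and replication medians were -0.61 and -0.42 without the 3 deepest AKK libraries, and -0.59 and -0.46 with the Hoxb6 covariate.

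**Figure D5:**
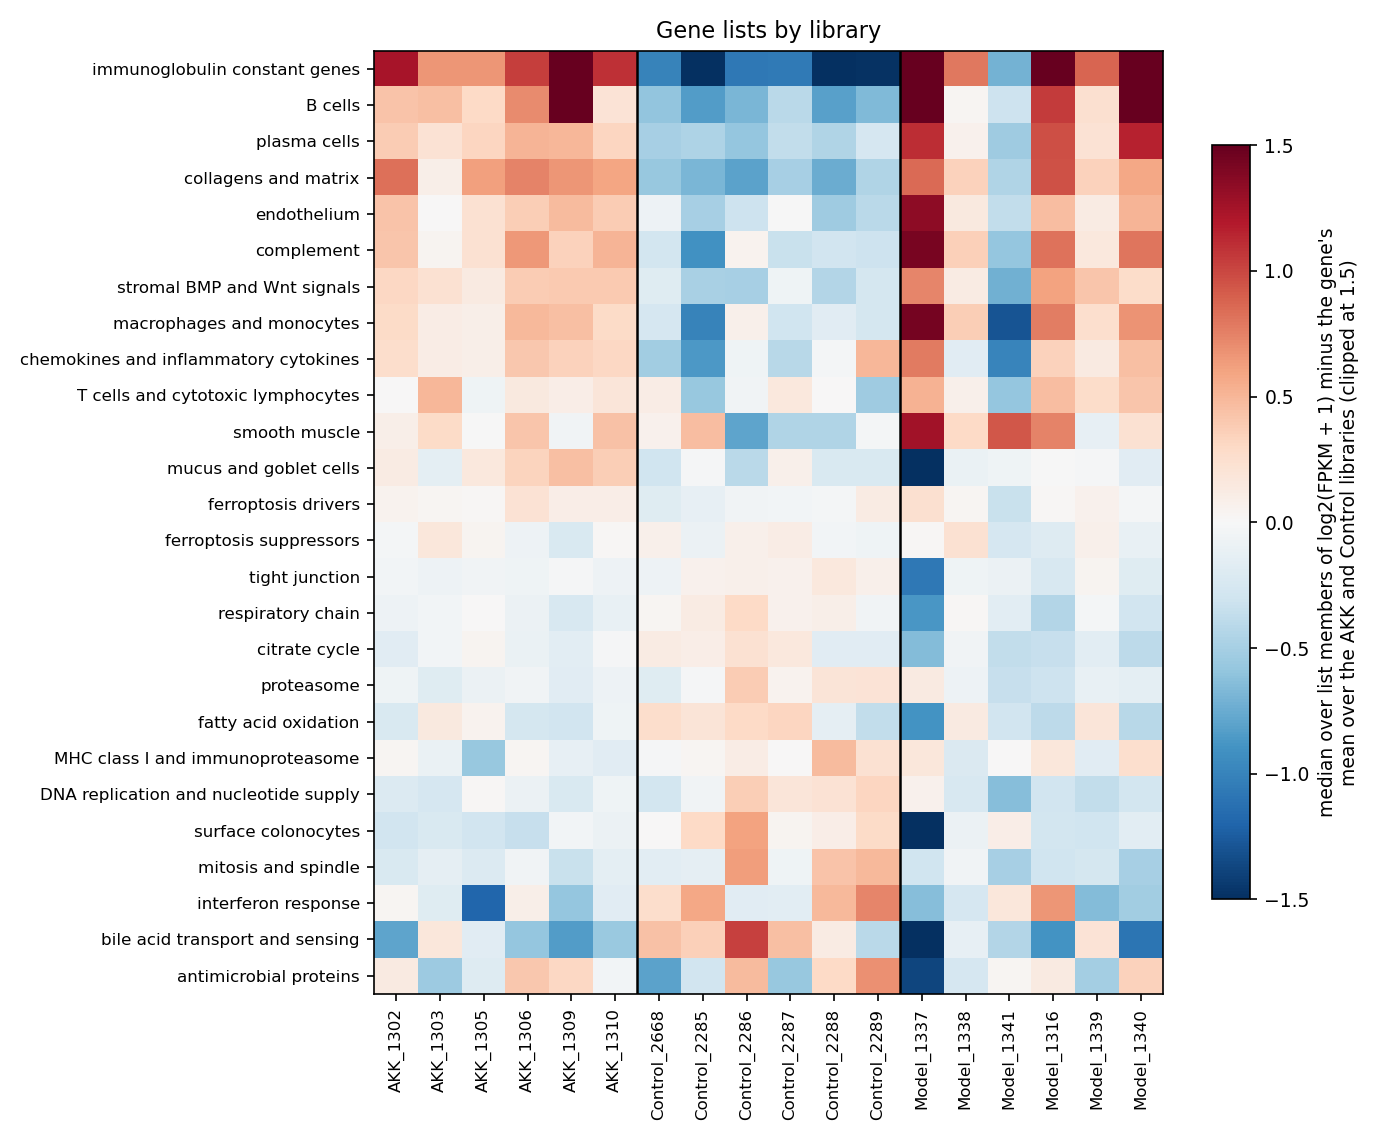
Median over the members of each gene list of log2(FPKM + 1) minus the gene's mean over AKK and Control libraries, for each library, with colours limited at 1.5. Matrix and antibody lists are raised in all 6 AKK libraries, while the interferon list runs from -0.17 to 0.73 among Control libraries and from -1.19 (AKK_1305) to 0.08 among AKK libraries.

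Mitochondrial energy genes encoded in the nucleus were lower by small amounts. Of 30 respiratory chain genes, 17 were lower (median -0.32), 29 of 30 with a negative difference. Cycs, cytochrome c, ran from 71.9 through 93.4 to 126 FPKM in Control and from 50.7 through 62.0 to 62.6 in AKK (-0.78 ± 0.13, adjusted p = 0.00241), with ranges apart. Ndufs1 of complex I, Uqcrfs1 of complex III and Sdha of complex II fell by 0.48, 0.43 and 0.41 on the log2 scale. Mitochondrially encoded genes took 6.43% ± 0.549 (SD, n = 6) of counts in AKK and 6.98% ± 1.08 in Control, which did not pass the exact permutation test (p = 0.290). Cytosolic ribosomal protein genes took 3.46% ± 0.311 and 2.94% ± 0.272 (exact permutation p = 0.0195). A share of counts is scaled by library totals. Of 35 listed ribosomal protein genes, 1 was called higher with TMM factors (median 0.14) and 14 with library totals alone.

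All 17 citrate cycle genes had a negative difference and 4 were lower (median -0.28), beside 9.16% of all tested genes. Dlst, of the oxoglutarate dehydrogenase complex, ran from 20.8 to 23.4 FPKM in Control and 17.98 to 20.1 in AKK (-0.35 ± 0.06, adjusted p = 0.00289), and Dld, shared by several dehydrogenase complexes, from 47.5 to 63.1 and 35.3 to 44.6 (-0.46 ± 0.09, adjusted p = 0.00603). Both had ranges apart. Sucla2 and Mdh2, a succinate ligase subunit and malate dehydrogenase, fell by 0.44 and 0.35. Of 23 fatty acid oxidation genes 7 were lower (median -0.36), beside the same 9.16%. Acadl, the long-chain acyl-CoA dehydrogenase, fell from a median of 87.0 to 62.8 (-0.51 ± 0.09, adjusted p = 0.00417). Cpt2, which receives acyl groups inside mitochondria, fell by 0.50, except without AKK_1306 (adjusted p = 0.0543). Slc25a20, the carnitine carrier, fell by 0.44 and lost its call without Control_2286, Control_2288 or any AKK library but AKK_1303 (adjusted p from 0.0609 to 0.0931). The respiratory count was 9 without AKK_1306 and 11 without AKK_1309. The citrate cycle count was 9 without Control_2289, and the fatty acid oxidation count 12 without Control_2289 and 2 without AKK_1306. All 3 were 0 without the deepest AKK libraries and with the Hoxb6 covariate, and 7, 4 and 1 without Control_2286 and AKK_1309. In those 3 settings 0.141%, 0.111% and 2.73% of all tested genes were called lower. With the Hoxb6 covariate the medians were -0.21 for the respiratory chain, -0.19 for the citrate cycle and 0.0091 for fatty acid oxidation. With library totals in place of TMM factors the lower counts were 6 for the proteasome, 9 for the respiratory chain, 5 for DNA replication, 7 for MHC class I and 3 for tight junctions, with each median still negative.

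The ferroptosis genes of the study's question mostly did not pass the test. Gpx4, which reduces lipid peroxides, ran from 45.0 through 54.2 to 61.2 FPKM in Control and from 45.5 through 61.2 to 68.0 in AKK (0.05 ± 0.11, adjusted p = 0.765). The groups overlapped. Slc7a11, the cystine transporter, was below the level filter, with 0.0913 to 0.722 FPKM in Control and 0.500 to 1.09 in AKK, and was not tested. Of 22 ferroptosis suppressors tested, of 24 listed, 1 was lower and 0 higher (median -0.12), beside 9.16% and 9.71% of all tested genes. The lower count was 3 without Control_2668 or AKK_1303. It was 0 without the 3 deepest AKK libraries, without Control_2286 and AKK_1309, and with the Hoxb6 covariate. The suppressor called lower with all 12 libraries was Gss, glutathione synthetase (-0.40 ± 0.11, adjusted p = 0.0246). It lost its call without Control_2286, Control_2288, AKK_1306 or AKK_1309 (adjusted p from 0.0517 to 0.0704).

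Of 20 ferroptosis drivers tested, of 25 listed, 2 were higher and 3 lower (median -0.01), beside 9.71% and 9.16% of all tested genes. The lower count was 0 or 1 in 9 of the 12 fits without 1 library, all but those without Control_2286, Control_2289 or AKK_1303. Without the 3 deepest AKK libraries, and with the Hoxb6 covariate, 0 drivers were called in either direction, Nox1 included. Without Control_2286 and AKK_1309 1 was higher and 1 lower. Nox1, the superoxide-producing oxidase of colon epithelium, ran from 1.81 through 3.52 to 6.74 FPKM in Control and from 7.15 through 14.4 to 19.3 in AKK (1.71 ± 0.37, adjusted p = 0.0102), with ranges apart. Acsl4, the ligase that loads polyunsaturated fatty acids into membranes, had medians of 4.59 and 7.24 (0.43 ± 0.12, adjusted p = 0.0251), and lost its call without Control_2286, Control_2288, AKK_1302 or AKK_1310 (adjusted p from 0.0506 to 0.0562). The outer mitochondrial channel Vdac2 fell by 0.42, a call lost without Control_2288 or AKK_1306 (adjusted p = 0.0503 and 0.0587). Vdac3, its relative, fell by 0.49 and Keap1, the sensor that degrades Nrf2, by 0.24; each lost its call in 10 of 12 fits (adjusted p up to 0.12 and 0.109). Vdac3 kept it without Control_2289 or AKK_1303, and Keap1 without Control_2286 or AKK_1303.

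Of 22 iron handling genes tested, of 23 listed, 1 was higher and 1 lower (median 0.15), beside 9.71% and 9.16% of all tested genes. The higher count was 3 without Control_2668, 2 without Control_2287, 4 without Control_2289 and 4 with library totals. Without the 3 deepest AKK libraries 0 were higher and 0 lower, and with the Hoxb6 covariate 1 and 0. Hfe, a regulator of iron sensing, ran from 2.83 to 3.81 FPKM in Control and 4.88 to 5.54 in AKK (0.54 ± 0.08, adjusted p = 0.00174), with ranges apart. Heph, the ferroxidase of iron export, fell by 0.32 and lost its call in 10 of 12 fits, all but those without Control_2288 or Control_2289 (adjusted p up to 0.106). Tfrc, the transferrin receptor, had medians of 25.2 and 29.1 (adjusted p = 0.56), and Fth1, the ferritin heavy chain, 506 and 426 (adjusted p = 0.236). Hmox1, heme oxygenase, had 6.10 and 7.69 (adjusted p = 0.491), Ptgs2, an inducible cyclooxygenase often read in ferroptosis work, 3.50 and 4.53 (adjusted p = 0.952), and Nfe2l2, the antioxidant regulator Nrf2, 60.9 and 51.6 (adjusted p = 0.34). For these 5 genes the ranges overlapped, and a p that misses the threshold does not show equal levels.

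The annotation columns of the deposited table were counted in the same way. Among 295 KEGG terms of 10 to 200 tested genes, the highest shares called higher were 13 of 26 genes for the intestinal network of immunoglobulin A production, 18 of 37 for complement and coagulation and 26 of 54 for ECM-receptor interaction. The highest shares called lower were 26 of 43 for the proteasome, 8 of 21 for mismatch repair, 4 of 11 for ubiquinone synthesis, which also had 2 higher, and 12 of 34 for DNA replication, with oxidative phosphorylation at 41 of 119. These stand beside 9.71% and 9.16% of all tested genes. Among 1767 GO terms, collagen-type constituents of tensile strength led with 19 of 23 genes higher, followed by collagen trimer with 29 of 41, and the proteasome core complex led downward with 11 of 17. Among 961 Reactome terms, NCAM1 interactions had 10 of 10 genes higher and collagen chain trimerization 18 of 23. The largest changes in the NCAM1 term were those of the collagens Col3a1, Col5a2 and Col5a1. It shared 55.6% of the called trimerization genes. The 8 Reactome terms with the highest share called lower held much the same proteasome genes, since 96.2% to 100% of the called members of each were shared with the first, cross presentation of antigen, with 25 of 45 lower.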

How the data were processed

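The series measured poly(A) RNA from mouse colon by paired-end sequencing. Per the submitters' processing notes, the tools used were cutadapt 1.9, HISAT2 2.2.1, StringTie 2.1.6, DESeq2 and edgeR, with genome build mm10. The deposited table gives, per the file headers, a count and an FPKM value per gene and library. The authors' counts are whole numbers treated as estimated counts. The sources used here do not state how they were derived or whether strand was used. Reads of overlapping genes therefore cannot be assigned to one of them with certainty. The authors' FPKM values were used, without TMM factors, for levels, the filter and range comparisons.

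Members and gene lists were chosen with earlier results of these data known. Genes with FPKM of 1 or more in at least 6 of 12 libraries were tested with edgeR 4.0.16 (R 4.3.3) quasi-likelihood with TMM factors on 6 AKK and 6 Control libraries, with no covariate, and adjusted over all 13479 genes. Standard errors were computed from the log2 difference and its F statistic. TMM factors were 0.929 to 0.996 in Control and 1.03 to 1.06 in AKK, and total counts 53873744 to 82589848. Class shares of counts were compared by an exact permutation test. In data simulated from these libraries, 67 of 13479 genes were changed 1.5-fold, 67 were changed 2-fold and 66 were changed 4-fold. edgeR recovered 43.3% of genes changed 1.5-fold, 74.6% changed 2-fold and 93.9% changed 4-fold, with 2 unchanged genes among 143 calls. The share of unchanged genes among the 2544 calls of the real libraries was not tested.

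Genes named are the 12 largest rises and 12 largest falls in mean log2(FPKM + 1) among called genes with ranges apart, leaving out predicted models, pseudogenes and antigen receptor segments; up to 4 called members per list with the largest change, or the 2 with the smallest p; 10 genes of the study's question; and annotation terms with the highest called share. Igha, Irf1, Ccl28, Zg16 with the other called mucus genes, the called crypt, ferroptosis and iron genes, and the position genes were added after their values were seen. A few genes that the rule picks are not reported here. Alternatives used DESeq2 1.42.0, limma 3.58.1, other scalings, filters and left-out libraries, 25 in all. Tables were made with pandas 2.3.3 and numpy 2.4.6 and plots with matplotlib 3.10.9, in Python 3.11.15.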

Additional observations from a re-analysis of the deposited data

Results flagged for a closer look

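Among 282 groups of 6 libraries examined, 31 had 1 library separated from the other 5 by a gap too large for its range; about 1 in 20 is flagged by chance. None of the causes was tested.

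Control_2286 was high for Mal (274 FPKM), Mdh2 (95.2), Lyz1 (463), Fabp6 (187), Vil1 (278), Itln1 (164) and Defa24 (458), of which Defa24, Itln1, Lyz1 and Fabp6 are small-intestinal genes. Vil1, villin of the brush border, ran from 156 to 163 to 278 FPKM (lowest, median, highest) in Control and from 124 to 148 in AKK.

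AKK_1309 was high for the B cell genes Cd79a (22.5 FPKM), Fcrla (6.50) and Cd22 (5.99), for Muc13 (650.0) and Hoxb13 (58.9), and for the immunoglobulin share of counts (2.81%), and low for Cycs (50.7).

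AKK_1303 was high for Reg3a (1.62 FPKM), Fabp6 (4.77) and Itln1 (1.57) and low for Selp (0.818) and Vwf (1.22). AKK_1306 was high for Ccl8 (97.7) and Tfrc (43.3), and AKK_1305 for Cdca7 (15.1).

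Among other Control libraries, Control_2289 was high for the stromal signals Grem1 (30.5 FPKM), Sfrp1 (14.1) and Rspo3 (3.77). Control_2668 was high for the mitochondrial transfer RNA genes mt-Th (33.6), mt-Tl2 (26.9) and mt-Ts2 (26.8) and for Ighg3 (1.41), and low for Cdca7 (11.95). Control_2285 was high for Hoxb13 (4.88).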

How the results depend on the processing

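No paired analysis was possible because the library numbers of the AKK and Control groups are not shared. Counts of genes called higher and lower moved by over 1.5 times as follows: with library totals alone 2128 and 510, with limma on log2(FPKM + 1) 2213 and 459 and on log2(FPKM + 0.1) 2169 and 456, with all 18 libraries in the fit 479 and 330, and without libraries over 70000000 counts 163 and 19. Without Control_2286 and AKK_1309 they were 704 and 368, and with Hoxb6 as a covariate 85 and 15. With no filter the lower count was 755. Leaving out 1 library gave 951 to 1589 higher and 562 to 1746 lower; the lower count moved by over 1.5 times without Control_2286 (760), Control_2288 (741), AKK_1302 (769), AKK_1306 (562), AKK_1309 (685) or AKK_1310 (708). The cause was not tested. DESeq2 called 1706 and 1705. Of the 2544 calls, every one kept its sign in the alternatives run, except 1 with the Hoxb6 covariate. The alternatives refit the same libraries or most of them, so a kept sign was largely fixed in advance. Of these calls, 182 stayed called without libraries over 70000000 counts, 807 with all 18 libraries in the fit and 96 with the Hoxb6 covariate. The immunoglobulin, mitochondrial and ribosomal shares kept their side of the threshold with any 1 library left out and as shares of summed FPKM. These alternatives did not use TMM factors.

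Signs of genes that were not called turned as follows. Tfrc was -0.19, Fth1 0.15, Nfe2l2 0.14 and Ptgs2 -0.0056 with the Hoxb6 covariate. With 1 library left out Ptgs2 was between -0.12 and 0.28, and below 0 without Control_2668 (-0.04), Control_2285 (-0.12), Control_2286 (-0.02), Control_2287 (-0.02), AKK_1305 (-0.08) or AKK_1306 (-0.07). Muc2 was 0.0098 with library totals alone and 0.0721 and 0.0722 with limma on log2(FPKM + 1) and log2(FPKM + 0.1). With 1 library left out it was between -0.24 and 0.0072, the latter without Control_2285. Group, library number and position along the gut moved together and cannot be told apart. Depth moved with group in part. AKK_1306, AKK_1309 and AKK_1310 exceeded every Control library, while AKK_1302, AKK_1303 and AKK_1305 lay inside the Control range. What depth added to the differences was not tested.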

Other observations

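Genes of protein folding and the unfolded protein response, which secretory cells rely on, were tested as another list. Of 28 tested of 29 listed, 3 were higher and 1 lower (median 0.06), beside 9.71% and 9.16% of all tested genes. With library totals 6 were higher and 0 lower, and without Control_2668 3 were lower. Without the 3 AKK libraries of more than 70000000 counts, and with Hoxb6 as a covariate, 0 were higher. Herpud1, a factor of degradation at the endoplasmic reticulum, ran from 35.0 to 52.5 FPKM in Control and 56.3 to 92.6 in AKK (log2 difference 0.58 ± 0.12 SE, adjusted p = 0.00664). Edem1, which hands misfolded glycoproteins to degradation, ran from 21.2 to 25.5 and from 26.9 to 40.3 (0.45 ± 0.09, adjusted p = 0.0058). Atf6, a stress sensor of the same compartment, rose from a median of 6.09 to 8.22 (0.31 ± 0.08, adjusted p = 0.0164), and all 3 had ranges apart. Canx, the chaperone calnexin, fell from 91.7 to 70.8 (-0.41 ± 0.10, adjusted p = 0.0178) with overlapping ranges.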
